A study of Mus musculus with 16 samples.

Results

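The interferon-stimulated genes examined here are a list of 42 genes from the IFIT, OAS, MX and IFITM families, the cytosolic nucleic acid sensors, the ISG15 system and other genes induced by interferon. All 42 were found by symbol among the 55604 genes listed in the deposited counts, and all 42 passed the minimum of 10 counts in at least 4 of 8 libraries that left 16861 genes for testing. RNA came from tumor-associated macrophages (TAMs) of the peritoneal cavity of female C57BL/6 mice, 6 to 8 weeks old when used, that carried ID8 cells, a mouse ovarian cancer line, and was taken 6 to 7 weeks after inoculation. No other treatment or allele was given for either group, and tumor-free mice were not analysed here. Tim-4+ TAMs were pulled from Ficoll-cleared peritoneal wash with an antibody to Tim-4 on beads, and Tim-4- TAMs were then enriched from the remaining cells with beads against F4/80. There were 4 libraries of each subset, in pairs numbered 793, 784, 783 and 779, and values by library are given below in that order of pairs. The sources do not state whether a number stands for 1 mouse or for pooled mice, so p-values measure the spread between these samples.

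Type I interferons (IFN-α and IFN-β) bind the receptor chains IFNAR1 and IFNAR2, and the kinases JAK1 and TYK2 then act on signal transducers, among them STAT2. With IRF9 these form a complex that binds the interferon-stimulated response element in the promoters of target genes. Macrophages carry the receptor and are known both as responders to interferon and, after sensing foreign nucleic acid, as a source of it. The study set paired subsets side by side, and the members were compared here between Tim-4+ and Tim-4- TAMs within pairs and, in the same fit, between pairs across both subsets.

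Counts on genes totaled 53527928 to 57768202 in Tim-4+ libraries and 55618306 to 69594245 in Tim-4- libraries, and levels below are CPM, counts scaled to library size with TMM factors. A count of 3 corresponded to 0.0382 to 0.0630 CPM, which covers counting error only. Counts of *Timd4*, the gene for Tim-4, ran from 28683 to 87151 in Tim-4+ and from 128 to 5669 in Tim-4- libraries. The macrophage genes *Adgre1*, *Cd68* and *Itgam* were present in every library and higher in Tim-4+ TAMs, where the 6 macrophage markers summed to 5893 to 7242 CPM against 2498 to 3800 CPM, while *Mrc1* was lower. The 5 tumor and mesothelial markers examined (*Krt8*, *Krt19*, *Upk3b*, *Epcam* and *Wt1*) summed to 82.5 to 296.9 CPM in Tim-4+ and 327.9 to 1425 CPM in Tim-4- libraries, and all 5 were lower in Tim-4+ TAMs. The 5 monocyte markers summed to 55.8 to 121.0 CPM in Tim-4+ and 182 to 221 CPM in Tim-4- libraries, with *Ccr2*, *Ly6c2* and *Chil3* lower in Tim-4+ TAMs. Markers of plasmacytoid and conventional dendritic cells, B cells and granulocytes summed to at most 6.03, 29.4, 17.9 and 5.26 CPM. In bulk RNA, fewer cells of a type and less RNA per cell cannot be told apart, and the part of these other cells in the results below was not tested.

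As examples of sequence, the bases before the start sites are shown for 6 genes that hold the response element core there. Of these, 3 stood out between pairs (*Ifit1*, *Ifit3*, *Isg15*) and 3 were higher in Tim-4+ TAMs (*Oas3*, *Rsad2*, *Ifitm2*). Capitals mark the response element core GAAANNGAAA, searched on both strands (TTTCNNTTTC on the other), and overlapping matches were counted separately. The stretches are from RefSeq on GRCm38.p6 and are written 5′ to 3′ on the strand of the gene.
Ifit1: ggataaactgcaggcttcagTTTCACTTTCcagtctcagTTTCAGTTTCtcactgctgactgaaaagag
Ifit3: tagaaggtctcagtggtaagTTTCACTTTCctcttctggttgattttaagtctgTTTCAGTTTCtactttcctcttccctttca
Isg15: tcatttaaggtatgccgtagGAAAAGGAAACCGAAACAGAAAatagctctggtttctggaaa
Oas3: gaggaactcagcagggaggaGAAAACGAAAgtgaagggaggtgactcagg
Rsad2: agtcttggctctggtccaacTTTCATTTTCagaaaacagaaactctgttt
Ifitm2: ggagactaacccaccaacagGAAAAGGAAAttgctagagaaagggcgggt
The *Ifit1* stretch is chr19:34640765-34640833 (+ strand), that of *Ifit3* is chr19:34583353-34583436 (+ strand), that of *Isg15* is chr4:156200855-156200916 (- strand), that of *Oas3* is chr5:120777705-120777754 (- strand), that of *Rsad2* is chr12:26456543-26456592 (- strand) and that of *Ifitm2* is chr7:140955978-140956027 (- strand). Windows of 300 bases, 250 before to 50 after the start site, were at hand for 30 of the 42 members. The core was found in 17 of the 30 (56.7%), against 3.99% of the 27025 genes with a window. More than 1 match was found in 8 members and in 0.266% of all genes. Of the members higher in Tim-4+ TAMs that had a window, 3 of 5 held the core, and of those that differed between pairs 15 of 25 did. Only genes with a match before the start site were shown, so the 6 do not stand for the members as a whole. The windows of *Ifit2*, *Oasl1* and *Cmpk2* held no match, which says only that these letters are not in those bases.

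Between subsets, 8 members were higher in Tim-4+ TAMs: *Rsad2*, *Cmpk2*, *Oas3*, *Oasl1*, *Zbp1*, *Ifi204*, *Ifitm2* and *Rtp4*. That is 19.0% of the 42, against 8.97% of all genes tested that were called higher (edgeR's quasi-likelihood test with the pair as a block, adjusted p under 0.05 after Benjamini-Hochberg correction over 16861 genes). No member was called lower, against 8.43% of all genes. Of the members below 0, 1 (*Bst2*) had an unadjusted p under 0.05 (0.022), which DESeq2 called. DESeq2 called 26.8% of all genes in either direction. When libraries were scaled to total counts 6 members were called lower, and 33.8% of all genes were called in either direction. The median log2 fold change (Tim-4+ over Tim-4-) of the 42 was 0.17, beside -0.0012 over all genes tested. With total counts these medians were -0.19 and -0.36, and 2 members (*Rsad2* and *Ifitm2*) were called higher. *Rsad2* and *Ifitm2* were also the members called higher without pair 784 or without pair 779. In those fits 0.817% and 4.77% of all genes were called between subsets in either direction. Without pair 793, 3 members were called (with *Cmpk2* added), beside 7.32% of all genes. Without pair 783, 9 members were called, beside 21.8% of all genes. All 8 members named above had a log2 fold change above 0 in each of these fits. Between pairs, 36 of the 42 (85.7%) differed, against 11.5% of all genes (F test of the pair terms in the same fit). The members that did not pass were *Ifi204*, *Ifitm1*, *Ifitm2*, *Ifitm3*, *Samd9l* and *Dtx3l*. In the 2 tests together, 30 members passed between pairs alone, 6 in both, 2 (*Ifi204* and *Ifitm2*) between subsets alone and 4 in neither.

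**Figure D1:**
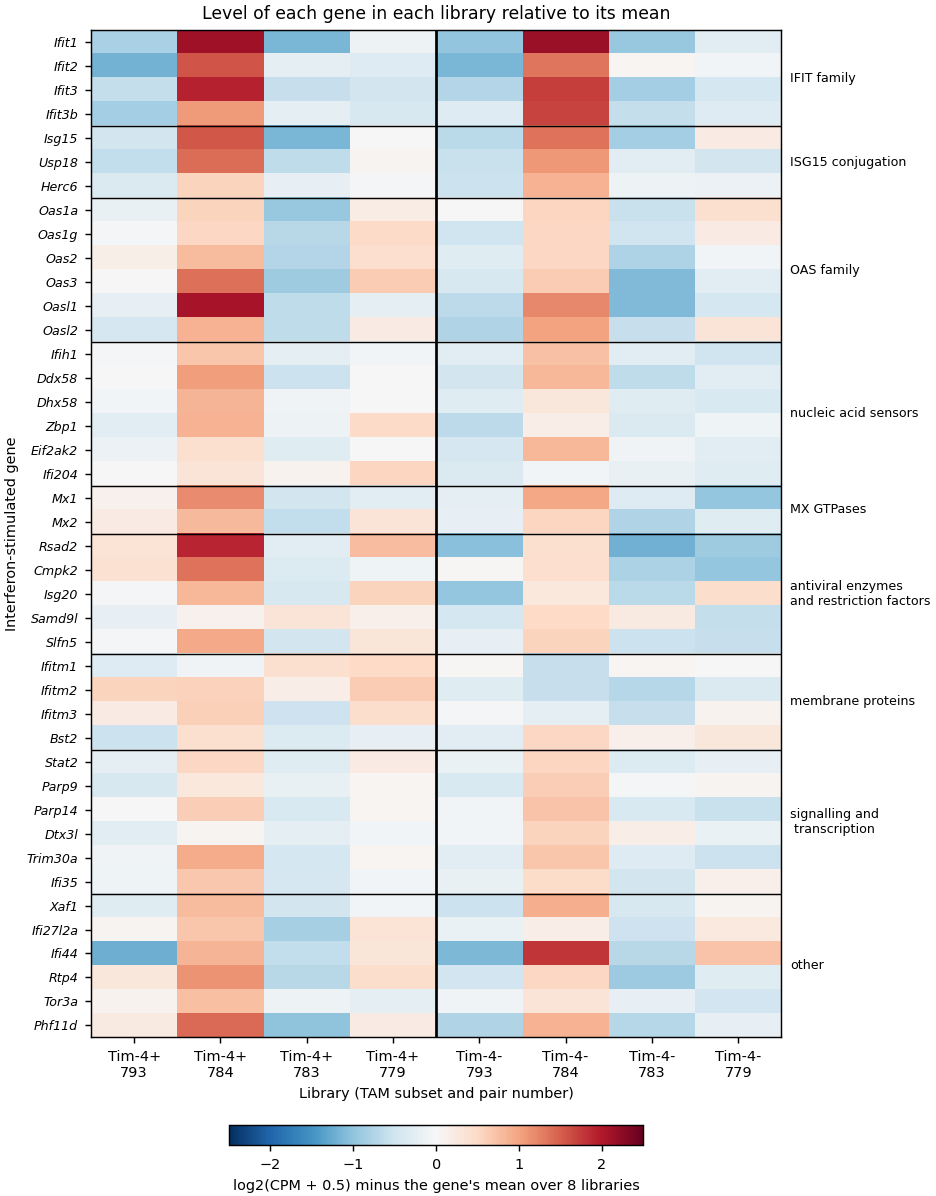
Level of the 42 interferon-stimulated genes (rows, grouped by role) in the 8 libraries (columns, Tim-4+ on the left), as log2(CPM + 0.5) minus the gene's mean over the 8 libraries. The columns of pair 784 are red for most genes in both subsets, and pair 784 was the highest of the 4 pairs in both subsets for 35 of 42.

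Pair 784 stood out, and it was singled out after its values were seen. It was the highest of the 4 pairs in both subsets for 35 of 42 members (83.3%), against 14.2% of all genes. For 31 members (73.8%, against 8.64% of all genes) each of its libraries was above all 6 libraries of the other pairs. The median member was 1.81-fold the mean of the other 3 pairs in Tim-4+ TAMs and 2.02-fold in Tim-4- TAMs, where the medians over all genes were 0.967 and 0.962. Pair 783 was the lowest of the 4 for 29 members in Tim-4+ TAMs (4925 of 16861 genes). In Tim-4- TAMs pairs 783, 793 and 779 were lowest for 16, 15 and 10 members (3676, 4068 and 4348 genes). Summed over the 42 members, levels were 3958, 6788, 2968 and 4799.5 CPM in Tim-4+ TAMs and 3251, 5334, 2898 and 3754 CPM in Tim-4- TAMs. The pairs cannot be told apart from whatever differed between their mice, tumors or harvests.

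Most of the calls between pairs depended on pair 784. Without it, 1 member (*Ifi44*) of 42 passed the test between the 3 pairs left, beside 1.52% of all genes (11.5% with all 4 pairs). Not passing with 3 pairs does not show that those pairs are alike. Without pair 779, 783 or 793, 35, 32 and 29 members did, beside 10.5%, 14.5% and 7.63% of all genes. Markers of other cells and of macrophages moved with pair 784 in both directions. *Fcgr1*, the high-affinity IgG receptor (adjusted p between pairs 0.0107), *Zbtb46*, a dendritic cell factor at 2.29 to 13.5 CPM (0.0426), and *Mpo*, a granule enzyme at 0.66 and 2.49 CPM in pair 784 and at most 0.063 CPM elsewhere, were highest in pair 784 in both subsets. *Mrc1*, the mannose receptor (adjusted p between pairs 0.00999), and *Mertk*, a receptor for dying cells (0.0512), were lowest there in both. Other markers of the same cells differed: *Clec9a* (dendritic cells) was lowest in pair 784 in both subsets (0.060 and 0.26 CPM). *S100a8* (granulocytes) was highest in pair 783 in both (2.89 and 1.90 CPM). The conventional dendritic cell sum was highest in pair 779 in Tim-4+ (29.4 CPM) and in pair 784 in Tim-4- TAMs (17.4 CPM). The granulocyte sum was highest in pair 784 in both (3.42 and 5.26 CPM). *Plac8*, a monocyte gene, was at 2.52, 19.99, 1.61 and 14.6 CPM in Tim-4+ TAMs and 3.58, 30.9, 7.88 and 16.4 CPM in Tim-4- TAMs, highest in pair 784 in both subsets, with pair 779 next. *Ly6c2*, which marks inflammatory monocytes, was at 0.13, 1.42, 0.48 and 0.33 CPM in Tim-4+ TAMs and 0.75, 19.1, 1.91 and 6.71 CPM in Tim-4- TAMs, also highest in pair 784 in both subsets. The part of these cells in the pair result was not tested. Of the 6 plasmacytoid dendritic cell markers, which summed to 2.21 to 6.03 CPM, *Siglech*, *Klk1* and *Pacsin1* stayed at or under 0.36 CPM, while *Ccr9*, *Ly6d* and *Cox6a2* reached 1.06, 1.60 and 4.46 CPM. The T and NK cell markers, 6 in all, summed to at most 1.82 CPM. The tumor and mesothelial sum was highest in pair 783 among Tim-4+ libraries and in pair 779 among Tim-4- libraries.

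The IFIT proteins bind foreign RNA and block its translation, and their 4 genes lie side by side on chr19:34550694-34650009 (GRCm38). In *Ifit1*, *Ifit2* and *Ifit3* the libraries of pair 784 stood far above the rest and the subsets lay close together. *Ifit1* was at 6.62, 54.0, 5.19 and 11.1 CPM in Tim-4+ TAMs and 5.83, 55.8, 5.99 and 9.99 CPM in Tim-4- TAMs. Its libraries of pair 784 were 7.09-fold and 7.68-fold the mean of the other 3 pairs in Tim-4+ and Tim-4- TAMs, and the subsets overlapped. The adjusted p was 0.000668 between pairs and 0.938 between subsets, with a log2 fold change of 0.019 ± 0.13 (SE). *Ifit3* was at 8.13, 48.8, 8.17 and 8.97 CPM in Tim-4+ TAMs and 7.36, 42.4, 6.74 and 9.03 CPM in Tim-4- TAMs (adjusted p between pairs 0.000929), so that 6 libraries lay between 6.74 and 9.03 CPM and those of pair 784 far above them. *Ifit2*, the family member with the highest CPM (per kilobase of exon *Ifit3* was higher), was at 7.48, 53.6, 14.9 and 14.0 CPM in Tim-4+ TAMs and 7.76, 45.5, 18.4 and 16.7 CPM in Tim-4- TAMs (adjusted p between pairs 0.00235, between subsets 0.663). Here pair 793 was the lowest in both subsets. *Ifit3b* ran from 0.23 to 3.79 CPM, and its counts are uncertain because 45.0% of its 50-base windows also occur in another gene's transcripts, nearly all in *Ifit3*, of whose windows 51.2% are shared.

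ISG15 is a ubiquitin-like protein that is attached to other proteins, HERC6 is its main ligase in mice and USP18 removes it and also holds back the receptor. *Isg15* was at 14.4, 59.9, 8.76 and 20.04 CPM in Tim-4+ TAMs and 12.3, 51.9, 10.9 and 23.2 CPM in Tim-4- TAMs (adjusted p between pairs 0.00269, between subsets 0.929). Its level followed the order 784, 779, 793 and 783 in each subset, and within the pairs neither subset was always above the other. *Usp18* was at 14.4, 59.1, 14.1 and 23.2 CPM in Tim-4+ TAMs and 14.9, 47.8, 18.6 and 16.03 CPM in Tim-4- TAMs, with an adjusted p of 0.0075 between pairs and 0.712 between subsets. *Herc6* ranged from 16.1 to 43.9 CPM and was likewise highest in pair 784 in both subsets. None of the 3 passed the test between subsets, and all 3 differed between pairs. The *Herc6* exons share 13.7% of their bases on the same strand with *Gm45193*.

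**Figure D2:**
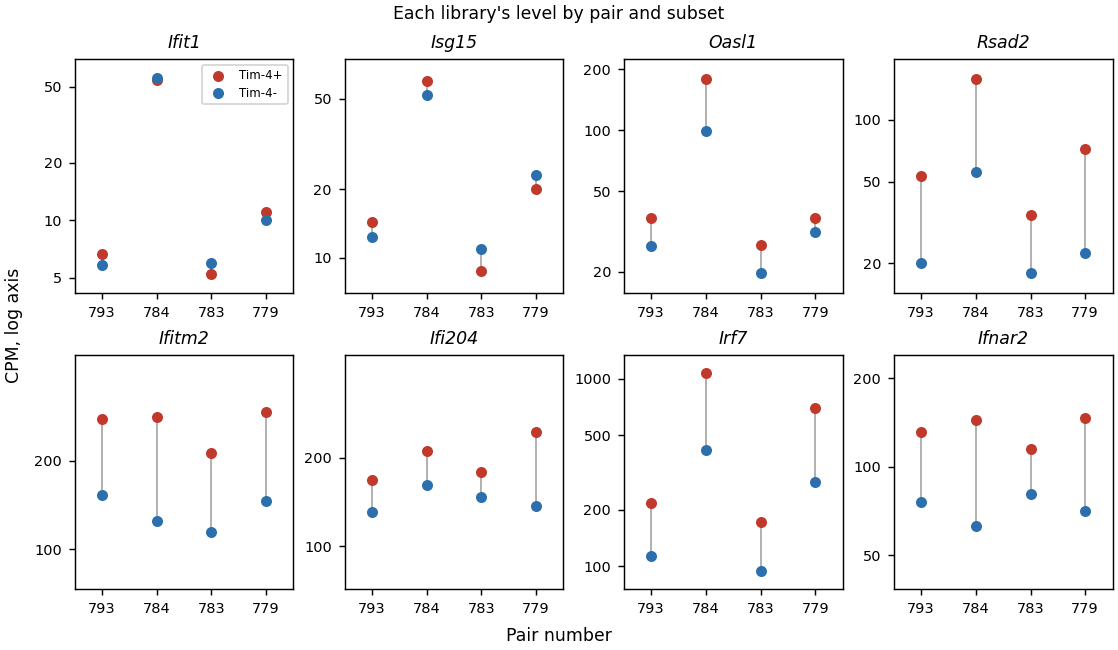
CPM (log axis) of 6 members and of *Irf7* and *Ifnar2* in each library, by pair number, with a line joining the Tim-4+ and Tim-4- library of a pair. In *Ifit1* and *Isg15* both libraries of pair 784 stand above the rest with little between subsets, in *Oasl1* and *Rsad2* the pair and the subset both show, and in *Ifitm2* the 4 Tim-4+ libraries lie at 212 to 293 CPM above the Tim-4- libraries at 114 to 153 CPM.

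The OAS enzymes make 2′-5′-linked oligoadenylates that activate RNase L, and OASL1 restrains the translation of IRF7. *Oas1a*, *Oas1g*, *Oas2* and *Oas3* lie on chr5:120730333-120907521, and *Oasl1* and *Oasl2* on chr5:114896936-114937915. The sum of the 6 genes was 637, 1374, 409 and 865 CPM in Tim-4+ TAMs and 506, 1159.8, 415 and 733 CPM in Tim-4- TAMs. All 6 differed between pairs, and *Oas3* and *Oasl1* also between subsets. *Oas3* was at 104, 269, 55.4 and 161 CPM in Tim-4+ TAMs and 78.2, 160.5, 47.9 and 84.0 CPM in Tim-4- TAMs. Its Tim-4+ library was above the Tim-4- library in every pair, while the 4 libraries of one subset overlapped those of the other, with a log2 fold change of 0.58 ± 0.14 (SE) (adjusted p 0.0298). *Oasl1* was at 37.1, 179, 27.3 and 36.8 CPM in Tim-4+ TAMs and 26.9, 98.7, 19.7 and 31.6 CPM in Tim-4- TAMs. Here too each Tim-4+ library was above its Tim-4- partner, by 0.51 ± 0.12 (SE) on the log2 scale (adjusted p 0.0312), and the adjusted p between pairs was 0.00139. *Oasl2*, the OAS gene with the highest CPM before length is taken into account, was at 166, 404, 142 and 256 CPM in Tim-4+ TAMs and 131, 444, 149 and 279 CPM in Tim-4- TAMs. Between subsets it gave a log2 fold change of 0.0013 ± 0.13 (SE) (adjusted p 0.995) whose sign turned with several settings, whereas its adjusted p between pairs was 0.00568. *Oas2* was above its partner in all 4 pairs and missed the threshold (log2 fold change 0.31 ± 0.12 (SE), adjusted p 0.118). *Oas1a* and *Oas1g*, at 39.7 to 112.5 and 18.9 to 44.9 CPM, share 57.6% and 45.7% of their 50-base windows with another gene, nearly all with each other, so their counts are uncertain.

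Among the sensors, RIG-I (*Ddx58*), MDA5 (*Ifih1*) and LGP2 (*Dhx58*) detect viral RNA, PKR (*Eif2ak2*) shuts down translation on double-stranded RNA, ZBP1 senses Z-form nucleic acid and IFI204 binds DNA. *Zbp1* (chr2:173206612-173218923) was at 105, 232, 117 and 178 CPM in Tim-4+ TAMs and 80.6, 142, 99.5 and 119 CPM in Tim-4- TAMs. Every Tim-4+ library exceeded its partner, by 0.48 ± 0.12 (SE) on the log2 scale (adjusted p 0.0306), with pair 784 highest and pair 793 lowest in both subsets. *Ifi204* (chr1:173747293-173766943) was at 168, 211, 179 and 244 CPM in Tim-4+ TAMs and 131, 161, 148 and 137 CPM in Tim-4- TAMs. Its 4 Tim-4+ libraries were above all 4 Tim-4- libraries, the log2 fold change was 0.47 ± 0.13 (SE) (adjusted p 0.041), and between pairs its adjusted p was 0.45. Of its 3512 windows of 50 bases, 703 occur in another gene, most often *Ifi211*. *Ddx58* was at 80.6, 166, 55.3 and 79.3 CPM in Tim-4+ TAMs and 58.3, 143, 51.5 and 66.7 CPM in Tim-4- TAMs, with an adjusted p of 0.00453 between pairs and 0.123 between subsets. The Tim-4+ library was above its partner in each pair, with a log2 fold change of 0.26 ± 0.10 (SE). *Dhx58*, at 52.2 to 123.7 CPM, came nearest to the threshold between subsets (log2 fold change 0.36 ± 0.11 (SE), adjusted p 0.054) and was called by DESeq2. *Ifih1* ran from 42.6 to 100.7 CPM and *Eif2ak2* from 42.6 to 102.1 CPM, each with its pair 784 libraries above the other 6.

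RSAD2 (viperin) turns CTP into a chain-terminating nucleotide, and CMPK2 is a mitochondrial kinase of CMP and UMP. Their genes lie head to head on chr12:26442746-26479837. *Rsad2* had the largest subset difference of the 42, at 53.3, 158, 34.2 and 72.1 CPM in Tim-4+ TAMs and 19.9, 55.5, 17.9 and 22.4 CPM in Tim-4- TAMs. The log2 ratio within the 4 pairs was 1.40, 1.503, 0.92 and 1.67, and the fitted log2 fold change was 1.39 ± 0.14 (SE) (adjusted p 0.00394). The pairs differed as well (adjusted p 0.00485), and the Tim-4- library of pair 784 lay above the Tim-4+ libraries of pairs 793 and 783. *Cmpk2* was at 24.2, 48.0, 14.4 and 17.2 CPM in Tim-4+ TAMs and 18.8, 24.98, 10.5 and 9.23 CPM in Tim-4- TAMs. The Tim-4+ library was the higher of each pair, by 0.67 ± 0.14 (SE) on the log2 scale (adjusted p 0.0214), again with pair 784 highest in both subsets (adjusted p between pairs 0.00932). *Slfn5*, the restriction factor with the highest CPM in this group, was at 98.1, 193, 72.8 and 124 CPM in Tim-4+ TAMs and 87.2, 147, 68.9 and 66.9 CPM in Tim-4- TAMs (adjusted p between subsets 0.111, between pairs 0.0244). *Isg20*, an RNA exonuclease, ran from 8.89 to 32.0 CPM and *Samd9l* from 57.4 to 123.4 CPM, and neither was called between subsets by edgeR (adjusted p 0.0749 and 0.561). The MX GTPases trap viral nucleocapsids, though GENCODE M21 lists *Mx2* as a polymorphic pseudogene. *Mx1* was at 31.8, 67.7, 21.4 and 24.2 CPM in Tim-4+ TAMs and 25.3, 57.9, 23.5 and 14.8 CPM in Tim-4- TAMs and *Mx2* ran from 9.64 to 29.3 CPM. Both differed between pairs (adjusted p 0.00781 and 0.0158) and neither passed between subsets (0.219 and 0.097).

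**Figure D3:**
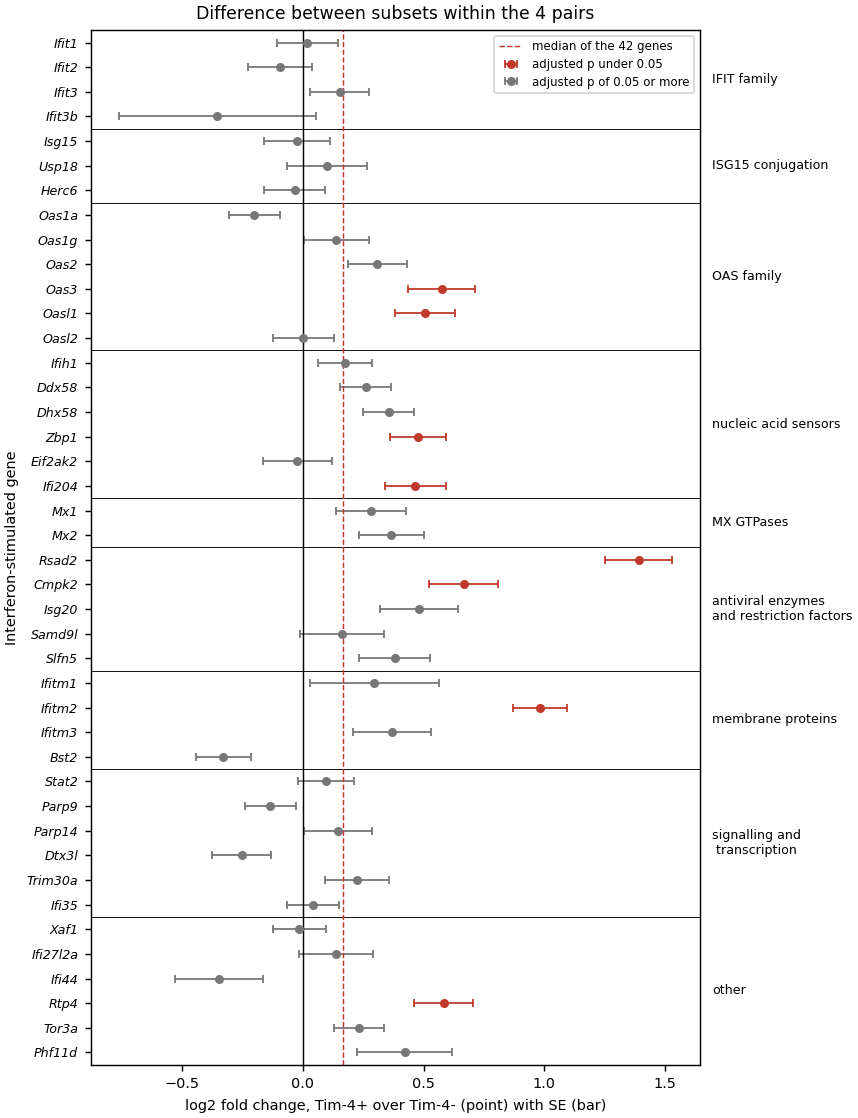
Log2 fold change of each member, Tim-4+ over Tim-4- (points, with the SE as bars), grouped by role, from the fit with the pair as a block (4 libraries a subset). The 8 red points passed an adjusted p of 0.05 and stay above 0 with total-count scaling too, and the dashed line is the median of the 42 at 0.17 (-0.19 with total counts).

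The IFITM proteins sit in membranes and stop viruses from fusing, and BST2 (tetherin) holds budding virions on the cell. Of the 4 membrane protein genes, 1 (*Bst2*) passed the test between pairs. *Ifitm2* was at 279, 281, 212 and 293 CPM in Tim-4+ TAMs and 153, 125, 114 and 147 CPM in Tim-4- TAMs. The 4 Tim-4+ libraries were above all 4 Tim-4- libraries, with a log2 fold change of 0.98 ± 0.11 (SE) (adjusted p 0.00509), and pair 784 was at 1.08 and 0.91 times the mean of the other pairs. *Ifitm2* and *Ifi204* were the 2 members (4.76%) whose Tim-4+ libraries all lay above the Tim-4- libraries, against 6.84% of all genes. The *Ifitm2* exons share 40.9% of their bases on the same strand with *Gm45717*, and 48.5% of the 50-base windows of *Ifitm2* occur in other genes, so its level is uncertain. *Ifitm3*, the member with the highest level of all per kilobase (1160 CPM per kb), was at 878, 1148, 531 and 1029.5 CPM in Tim-4+ TAMs and 738, 650.1, 508 and 809 CPM in Tim-4- TAMs. It was above its partner in each pair, but the spread was wide (log2 fold change 0.37 ± 0.16 (SE), adjusted p 0.15, between pairs 0.129). *Ifitm1* ran from 1.72 to 4.22 CPM and was the 1 member lowest in pair 784 among Tim-4- libraries. *Bst2* was lower in the Tim-4+ library of each pair, at 136, 260.4, 156 and 171 CPM in Tim-4+ TAMs and 161, 283, 215 and 241 CPM in Tim-4- TAMs, and did not pass the threshold (log2 fold change -0.33 ± 0.12 (SE), adjusted p 0.088).

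STAT2 is part of the complex that interferon receptors activate, PARP9 and DTX3L form a ubiquitin ligase complex, and TRIM30A and IFI35 act on inflammatory signaling. None of the 6 genes of this group passed the test between subsets, and 5 of 6, *Dtx3l* apart, differed between pairs. *Parp14*, which had the highest CPM of them on the longest exons, was at 169, 259, 128 and 175 CPM in Tim-4+ TAMs and 161, 277, 129 and 114 CPM in Tim-4- TAMs (adjusted p between pairs 0.0325, between subsets 0.515). *Stat2* ran from 96.9 to 178.2 CPM, with its pair 784 libraries above the other 6 (adjusted p between pairs 0.0392). *Parp14*, *Parp9* and *Dtx3l* lie together on chr16:35832874-35972605, and *Parp9* and *Dtx3l* overlap on opposite strands, with 458 exon bases in common. Among the remaining members, *Rtp4* (chr16:23520291-23614222), which encodes a receptor transporter, was at 79.0, 142, 40.3 and 88.5 CPM in Tim-4+ TAMs and 46.4, 93.7, 34.5 and 52.9 CPM in Tim-4- TAMs. Within pairs the Tim-4+ library was always the higher, by 0.58 ± 0.12 (SE) on the log2 scale (adjusted p 0.0191), and the gene differed between pairs (adjusted p 0.00771). Its exons share 13.9% of their bases on the same strand with *Gm45338*. *Ifi27l2a*, an ISG12 family gene with the highest CPM of this group, was at 350.0, 539, 188 and 423 CPM in Tim-4+ TAMs and 297, 376, 233 and 394 CPM in Tim-4- TAMs and passed only between pairs (adjusted p 0.0486). *Ifi44* ranged from 5.84 to 49.95 CPM, *Phf11d* from 24.7 to 134.1, *Xaf1* from 23.6 to 65.4 and *Tor3a* from 53.7 to 127.0 CPM, and all 4 were highest in pair 784 in both subsets.

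In all, Tim-4+ was above Tim-4- in each of the 4 pairs for 16 of 42 members (38.1%), against 22.4% of all genes. The median log2 ratio of the 42 within pairs 793, 784, 783 and 779 was 0.23, 0.23, 0.053 and 0.31. In a split of each member's sum of squares of log2(CPM + 0.5) over the 8 libraries, the pair accounted for a median of 87.9%, the subset for 4.90% and the rest, which is the pair-by-subset part, for 4.26%. Over all genes the medians were 52.6%, 18.9% and 16.2%. In 40 of 42 members (95.2%) the pair share was above the subset share, as it was in 69.6% of all genes, and the pair has 3 degrees of freedom against 1 for the subset. The exceptions were *Ifitm2*, with 10.2% between pairs and 88.5% between subsets, and *Ifi204*, with 20.7% and 65.3%, while in *Rsad2* the shares were 50.8% and 47.3%.

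**Figure D4:**
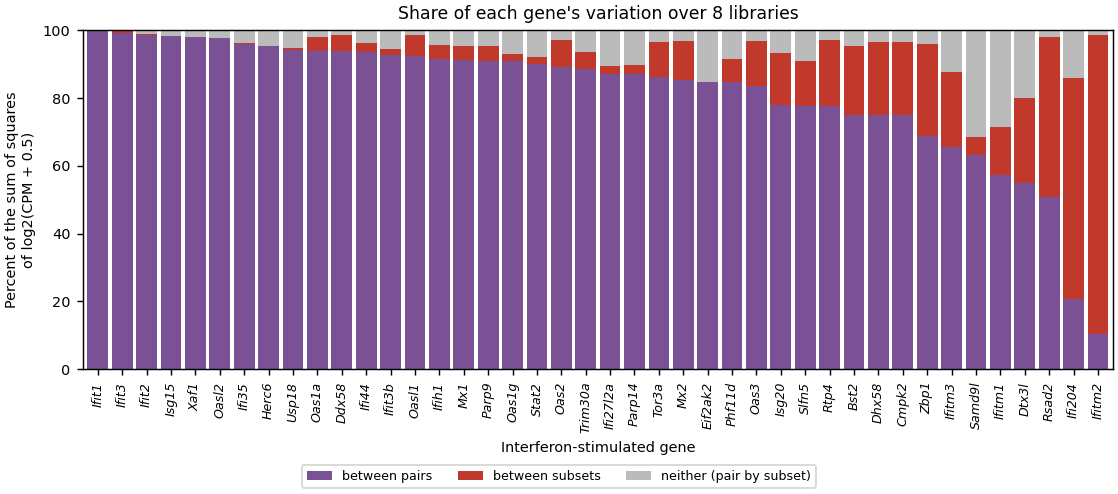
Share of each member's sum of squares of log2(CPM + 0.5) over 8 libraries that lies between pairs, between subsets and in neither, as percent, members ordered by the pair share. The pair share runs from 99.7% in *Ifit1* to 10.2% in *Ifitm2*.

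**Figure D5:**
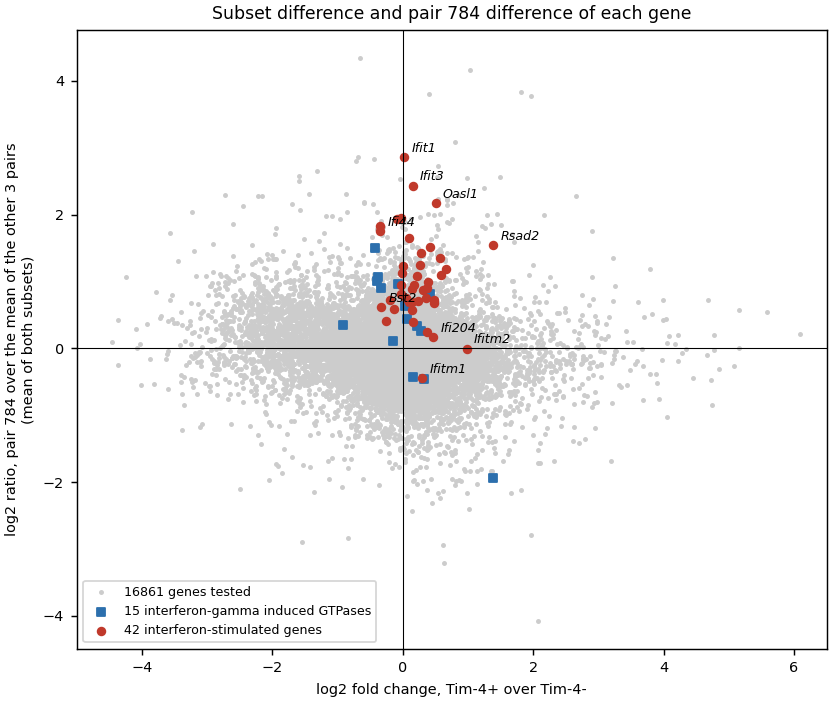
Log2 fold change between subsets (x axis, Tim-4+ over Tim-4-) and log2 ratio of pair 784 over the mean of the other 3 pairs, averaged over both subsets (y axis), for 16861 genes, with the 42 members as red points and 15 GTPases induced by interferon-gamma as blue squares. The 42 members sit mostly above 0 on the y axis (median 0.93, all genes -0.0088) and close to 0 on the x axis (median 0.17, or -0.19 with total counts), with *Rsad2* apart on the x axis.

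Upstream of the members, the deposited counts of the interferon ligand genes were at or near 0. Of 20 interferon ligand genes 16 had 0 counts in all libraries, and none passed the minimum for testing. Reads placed at several loci had been set aside, which lowers genes with near-identical copies. Sequence shared between the ligand genes was not examined, so their 0 counts do not show that transcripts were absent. *Ifnb1* had 0 counts in the 4 Tim-4+ libraries and 9, 1, 0 and 10 counts in the Tim-4- libraries. *Ifng* had at most 3 counts in a library.

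The receptor chains were present in every library. *Ifnar2* was at 131, 144, 115 and 146 CPM in Tim-4+ TAMs and 75.6, 62.8, 80.5 and 70.6 CPM in Tim-4- TAMs. It was higher in Tim-4+ TAMs without overlap, by 0.89 ± 0.13 (SE) on the log2 scale (adjusted p 0.00875, between pairs 0.971), whereas its partner chain *Ifnar1* ran from 88.0 to 145.7 CPM with a log2 fold change of -0.047 ± 0.12 (SE) (adjusted p 0.82). *Il10rb*, a chain of the lambda interferon and IL-10 receptors, was higher in Tim-4+ TAMs (0.60 ± 0.12 (SE), adjusted p 0.0163), and *Ifnlr1*, the other lambda chain, was lower (-2.07 ± 0.55 (SE), adjusted p 0.0476) at 0.63 to 13.3 CPM. The *Ifnlr1* call was lost with lane 2 alone (adjusted p 0.0721), with no count filter (0.166), without the block (0.0956) and without the symbol-listed lane (0.0611). *Irf9* passed neither test (log2 fold change 0.16 ± 0.11 (SE), adjusted p 0.325, between pairs 0.324).

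IRF7, which is itself induced by interferon and drives IFN-α transcription, showed both differences. *Irf7* was at 218, 1070.4, 173 and 703 CPM in Tim-4+ TAMs and 114, 415, 94.3 and 281 CPM in Tim-4- TAMs. The log2 ratio within the 4 pairs was 0.94, 1.37, 0.87 and 1.32 (fitted log2 fold change 1.13 ± 0.14 (SE), adjusted p 0.00637), and pairs 784 and 779 were above 793 and 783 in both subsets (adjusted p between pairs 0.00278). *Irf2*, a competitor of IRF1, was higher in Tim-4+ TAMs (1.10 ± 0.17 (SE), adjusted p 0.00912) without a difference called between pairs (adjusted p 0.139). *Irf1* went the other way between pairs, at 213, 64.2, 123 and 482 CPM in Tim-4+ TAMs and 272, 73.6, 121 and 307 CPM in Tim-4- TAMs, and was lowest in pair 784 in both subsets (adjusted p between pairs 0.00532).

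Over the whole pathway list, 30 of 52 genes were tested, 7 were higher in Tim-4+ TAMs (23.3%, against 8.97% of all genes), 2 were lower (6.67%, against 8.43%) and 10 differed between pairs (33.3%, against 11.5%). With total counts 3 were higher and 8 lower, beside 33.8% of all genes called in either direction. Without pair 784, 0 of them passed between subsets and 2 between pairs, although 13 had an unadjusted p under 0.05 between subsets, where 0.817% of all genes passed, and *Irf7* kept a log2 fold change of 1.04 (adjusted p 0.0514). Without pair 779 or 793, 3 and 4 were higher and 1 was lower in each fit, beside 4.77% and 7.32% of all genes called between subsets. DESeq2 called 11 higher and 3 lower, beside 26.8% of all genes called in either direction. Besides those named, *Ptpn6* (SHP-1, a phosphatase; 0.63 ± 0.15 (SE), adjusted p 0.0299), *Ikbke* (a kinase that activates IRF3 and IRF7; 0.58 ± 0.14 (SE), adjusted p 0.0285) and *Trim25* (a ligase that activates RIG-I; 0.52 ± 0.12 (SE), adjusted p 0.0225) were higher. *Tlr9*, the receptor for CpG DNA, was lower (-1.87 ± 0.27 (SE), adjusted p 0.00804). The pair test also called *Ifngr1*, *Ifngr2*, *Tlr7*, *Tlr9*, *Ticam1*, *Myd88*, *Ikbke* and *Trim25*, with adjusted p from 0.0052 (*Ikbke*) to 0.0459 (*Ifngr1*). *Ikbke*, *Myd88* and *Ifngr2* were highest in pair 784 in both subsets, and *Ifngr1* and *Tlr7* were lowest there in both.

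The GTPases induced by interferon-gamma, which attack vacuoles of microbes, gave a related family for comparison. Of 15 tested, 9 (60.0%, against 11.5% of all genes) differed between pairs, 1 (6.67%, against 8.97%) was higher (*Gbp2b*, 1.39 ± 0.25 (SE), adjusted p 0.0167) and 1 (6.67%, against 8.43%) lower (*Irgm1*, -0.40 ± 0.11 (SE), adjusted p 0.0401) in Tim-4+ TAMs. Neither of the 2 passed without pair 784 or without pair 779, with adjusted p from 0.0726 to 0.129. In those fits 0.817% and 4.77% of all genes passed between subsets. Pair 784 was highest in both subsets for 7 of the 15 (46.7%, against 14.2%), and their median was 1.22-fold and 1.73-fold the mean of the other pairs in Tim-4+ and Tim-4- TAMs. *Gbp2b* was at 153, 60.8, 134 and 239 CPM in Tim-4+ TAMs and 98.0, 14.0, 65.2 and 69.9 CPM in Tim-4- TAMs, lowest in pair 784 in both subsets. The difference between these shares and those of the 42 members was not tested.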

How the data were processed

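RNA was sequenced from 4 Tim-4+ and 4 Tim-4- TAM samples, paired by number, in 2 lanes each. Ribosomal RNA was removed and stranded libraries were read paired-end for 50 cycles. The authors deposited whole-number read counts per gene and lane, without normalization. The submitters' notes name FastQC 0.11.3, TopHat2 2.0.13, Cufflinks and Cuffdiff 2.2.1 on GRCm38, while the methods name hg19. The counter, and whether it used strand, are not given in the sources used here, so overlapping genes are uncertain. Reads placed at several loci had been set aside, which lowers genes with near-identical copies. Summary lines that name no gene were left out.

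Symbols came from GENCODE M21 and the supplied name table (53861 of 55604 identifiers). One lane, of the Tim-4- library of pair 793, was listed by symbol and joined by order, with 96.9% of 52760 comparable symbols and all 42 members matching. Lanes were summed (chi-square per degree of freedom 2.29 to 2.42 between them). Genes with 10 counts in 4 or more libraries were tested with edgeR 4.0.16 (R 4.3.3): TMM factors, robust quasi-likelihood, terms for pair and subset, and Benjamini-Hochberg adjustment. The SE is the size of the log2 fold change over the square root of F. Pair numbers come from the labels, and libraries of a number deviated together (r of 0.28 to 0.50), so the pair was kept as a block. DESeq2 1.42.0, other scalings and filters, 1 lane, no block and each pair left out were alternatives, and leaving out the symbol-listed lane was added after the data were seen. Members and gene lists were chosen with earlier results of these data known. Values by library are given for members called between subsets, the 6 with the smallest adjusted p between pairs and the member of highest CPM in each role, and pathway genes called in either test or central to the receptor are named. Shared sequence was sought as 50-base windows over GENCODE M21 transcripts on both strands. Jak2, Tmem173, Iigp1, Csf1r and Msln were not analysed here, and 1 gene is not reported here.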

Additional observations from a re-analysis of the deposited data

Results flagged for a closer look

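The 42 members and 21 other genes described beside them were examined for a library that stood apart from the other 3 of its subset by Dixon's 95% criterion for the gap over the subset's range, in 126 groups of 4 libraries. Chance flags about 1 group in 20 where values are normally distributed, which CPM need not be, and 22 were found. In 18 of the 22 the library was that of pair 784 and was the highest. In Tim-4+ TAMs these were *Ifit1* at 54.0 CPM, *Ifit2* at 53.6 CPM, *Ifit3* at 48.8 CPM, *Oasl1* at 179.5 CPM, *Ifih1* at 98.6 CPM, *Dhx58* at 123.7 CPM and, among pathway genes, *Ikbke* at 649.7 CPM. In Tim-4- TAMs they were *Ifit1* at 55.8 CPM, *Ifit3* at 42.4 CPM, *Ifit3b* at 3.79 CPM, *Usp18* at 47.8 CPM, *Oasl1* at 98.7 CPM, *Ifih1* at 100.7 CPM, *Ddx58* at 142.5 CPM, *Dhx58* at 83.3 CPM, *Rsad2* at 55.5 CPM, *Stat2* at 178.2 CPM and *Trim30a* at 200.7 CPM. Libraries of pair 784 were the lowest for *Ifitm1* in Tim-4- TAMs (1.72 CPM) and for *Ifngr1* in Tim-4+ TAMs (99.4 CPM). Outside this pair, *Irf2* was high in the Tim-4- library of pair 793 (145.8 CPM) and *Tlr9* in the Tim-4+ library of pair 783 (7.48 CPM). Values of the same library are not independent of each other, and the cause was not tested. The flags come from the values that gave the pair 784 result and are not separate support for it.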

How the results depend on the processing

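The count of members higher in Tim-4+ TAMs (8) stayed within 1.5 times with DESeq2 size factors, no count filter, no robust estimation (8 each), lane 2 alone, without the symbol-listed lane (9 each) and with DESeq2 (10). Between subsets, 9.19% to 26.8% of all genes were called in these fits, in either direction. Without the replicate block, which the labels' pairing favors, 1 member was called higher (*Ifitm2*) and 3 had an unadjusted p under 0.05, and the median log2 fold change was 0.20. In that fit 1.38% of all genes were called between subsets. With total counts 2 were called higher and 6 lower, beside 33.8% of all genes called in either direction. The median was -0.19 (all genes -0.36). DESeq2 called 1 member lower (*Bst2*). With each pair left out in turn, 2 to 9 members were higher, 0 were lower, the median ran from 0.12 to 0.26, and 1 to 35 members differed between pairs, the 1 being without pair 784. Of all genes, 0.817% to 21.8% were called between subsets in these fits and 1.52% to 14.5% between pairs. Without a subset term 4 members differed between pairs, beside 0.0652% of all genes. Under the other alternatives 34 to 37 did, beside 10.1% to 27.6% of all genes.

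Of the pathway list, 7 genes were higher, 2 lower and 10 differed between pairs with DESeq2 size factors and no robust estimation. Lane 2 alone gave 8, 1 and 9, no symbol-listed lane 8, 1 and 10, no count filter 7, 1 and 16, DESeq2 11, 3 and 18 and total counts 3, 8 and 13. No replicate block gave 1 higher (*Ifnar2*) and 0 lower, with 5 at an unadjusted p under 0.05, where 1.38% of all genes were called. No subset term gave 0 between pairs. With each pair left out, 0 to 7 were higher, 0 to 2 lower and 2 to 10 differed between pairs.

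No called gene changed sign between subsets. Of the others, the log2 fold change had the opposite sign with total counts for *Ifit1* (-0.34), *Ifit3* (-0.21), *Usp18* (-0.26), *Oas1g* (-0.22), *Oas2* (-0.0501), *Oasl2* (-0.36), *Ifih1* (-0.18), *Ddx58* (-0.0991), *Dhx58* (-0.0032), *Mx1* (-0.0765), *Samd9l* (-0.19), *Ifitm1* (-0.0634), *Stat2* (-0.26), *Parp14* (-0.21), *Trim30a* (-0.14), *Ifi35* (-0.31), *Ifi27l2a* (-0.22), *Tor3a* (-0.13), *Ifngr2* (-0.28), *Irf1* (-0.33), *Irf9* (-0.19) and *Myd88* (-0.26), without the replicate block for *Ifit1* (-0.0139), *Ifit2* (0.0243), *Isg15* (0.067) and *Oasl2* (-0.0524), with lane 2 alone for *Herc6* (0.076), *Oasl2* (-0.0222) and *Ifi35* (-0.032), with no count filter for *Oasl2* (-0.0151) and without the symbol-listed lane for *Ifit1* (-0.0077), *Oasl2* (-0.0071) and *Xaf1* (0.0099). With each pair left out, the sign turned for *Ifit1* (-0.0304 to 0.0842), *Isg15* (-0.11 to 0.0657), *Usp18* (-0.0495 to 0.26), *Samd9l* (-0.0314 to 0.35), *Stat2* (-0.018 to 0.15), *Parp14* (-0.0167 to 0.22), *Xaf1* (-0.0974 to 0.018), *Irf1* (-0.18 to 0.16), *Eif2ak2* (-0.12 to 0.11), *Ifngr1* (-0.0747 to 0.0571), *Herc6* (-0.10 to 0.0602), *Ifi35* (-0.0199 to 0.11), *Ifnar1* (-0.16 to 0.0232) and *Oasl2* (-0.11 to 0.0446). The cause of these changes was not tested. Members at a few CPM (*Ifit3b* and *Ifitm1*) have the widest errors, and with 4 pairs a difference of the median member's size did not pass the threshold.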
